A study of Mus musculus with 4 samples.

Results

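The Pim kinase family was described in mouse embryonic stem (ES) cells kept with or without leukemia inhibitory factor (LIF). Its members were found by name, as every probe set of the array whose annotation gives exactly 1 gene symbol and that symbol is Pim1, Pim2 or Pim3. This gave 6 probe sets of 45101 on the array, 2 for Pim1, 1 for Pim2 and 3 for Pim3, and all 6 lay above the filter on dim signals. The family was selected on its log2 differences between the arrays with and without LIF, which ran in opposite directions. The values with and without LIF are therefore given for these genes as a description, with no p-value.

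Transcripts were measured on 4 Affymetrix arrays of total RNA from CGR8 cells, an established mouse ES cell line grown without feeder cells on gelatin in medium with serum replacement. On 2 arrays the cells had medium with LIF at 1000 U/ml, and on 2 arrays they had the same kind of medium without LIF, for 2 days in each case. The labels number the arrays 1 and 2 within each group and do not say whether they came from separate cultures, so SDs and p-values cover array-to-array spread alone and that spread may be technical. The study addressed which transcripts depend on LIF signalling. In bulk RNA, fewer cells that express a gene and less RNA per cell cannot be told apart.

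The 3 Pim genes encode constitutively active serine/threonine kinases that promote cell survival, protein synthesis and cell cycle progression. They are controlled mainly through how much of the protein is made and how fast it is broken down. Cytokine receptors that signal through JAK kinases and STAT factors are known to induce Pim transcripts, and the LIF receptor of ES cells, made of Lifr and Il6st, works through Jak1 and Stat3. PIM kinases share several substrates with the kinase AKT, among them the death agonist Bad and the cell cycle inhibitor Cdkn1b.

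The promoter windows of the family are shown because the members differ in the motifs they hold. Each runs from 250 bases before to 50 bases after an annotated transcript start, is printed 5′ to 3′ on the strand of the gene, and comes from RefSeq on the build GRCm38.p6. Capitals mark matches to the SP1 box (GGGCGG), the E-box (CACGTG) or the octamer motif (ATGCAAAT), the binding motif of POU factors, on either strand. Pim1 has 2 windows, the first at chr17:29490535-29490834 and the second at chr17:29492835-29493134, both on the plus strand. The Pim2 window lies at chrX:7878056-7878355 and the Pim3 window at chr15:88861944-88862243, also on the plus strand.
Pim1, first start: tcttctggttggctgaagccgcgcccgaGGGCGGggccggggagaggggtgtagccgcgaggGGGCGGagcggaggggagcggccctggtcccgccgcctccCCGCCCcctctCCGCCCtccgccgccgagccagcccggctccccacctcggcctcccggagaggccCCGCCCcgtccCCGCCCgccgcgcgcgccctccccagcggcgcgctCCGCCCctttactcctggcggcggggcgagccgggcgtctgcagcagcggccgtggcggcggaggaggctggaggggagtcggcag
Pim1, second start: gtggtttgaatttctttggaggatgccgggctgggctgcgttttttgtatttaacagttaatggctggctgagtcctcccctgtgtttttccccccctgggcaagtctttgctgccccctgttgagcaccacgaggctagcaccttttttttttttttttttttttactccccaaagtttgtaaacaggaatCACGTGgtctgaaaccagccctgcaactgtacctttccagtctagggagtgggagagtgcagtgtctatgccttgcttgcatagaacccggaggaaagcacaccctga
Pim2: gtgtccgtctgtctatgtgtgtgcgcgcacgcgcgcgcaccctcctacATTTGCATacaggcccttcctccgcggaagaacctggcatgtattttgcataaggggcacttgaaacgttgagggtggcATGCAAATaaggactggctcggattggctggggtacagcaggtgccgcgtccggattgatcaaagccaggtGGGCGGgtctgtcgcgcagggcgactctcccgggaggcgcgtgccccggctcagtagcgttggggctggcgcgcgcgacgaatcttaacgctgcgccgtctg
Pim3: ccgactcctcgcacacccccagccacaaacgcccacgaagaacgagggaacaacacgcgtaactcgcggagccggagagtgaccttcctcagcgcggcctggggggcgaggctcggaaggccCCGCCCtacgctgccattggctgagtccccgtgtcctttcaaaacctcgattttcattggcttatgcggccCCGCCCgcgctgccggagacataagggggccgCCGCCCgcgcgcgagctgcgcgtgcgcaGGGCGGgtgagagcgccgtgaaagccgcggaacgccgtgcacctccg

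The first Pim1 window held 7 SP1 boxes, the Pim3 window 4 and the Pim2 window 1, while 35.7% of the 32851 RefSeq promoter windows of this length held at least 1 and 19.5% held at least 2. The second Pim1 window had an E-box as its only match, a motif found in 7.15% of all windows. The Pim2 window held 2 octamer motifs, from 202 to 195 and from 123 to 116 bases before the start. At least 1 octamer motif was found in 1.74% of all windows and at least 2 in 0.107%, or 35 windows. The octamer motif was searched only after the sequences had been seen, so that its presence in Pim2 is a description. The STAT dimer motif (TTCNNNGAA), found in 8.30% of all windows, and the TATA box (TATAAA), found in 13.6%, matched none of the 4 windows. Matches of different motifs did not overlap. The letters G and C made up 81.3% of the first Pim1 window, 69.0% of the Pim3 window, 62.7% of the Pim2 window and 49.0% of the second Pim1 window, against a median of 52.7% over all windows.

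**Figure D1:**
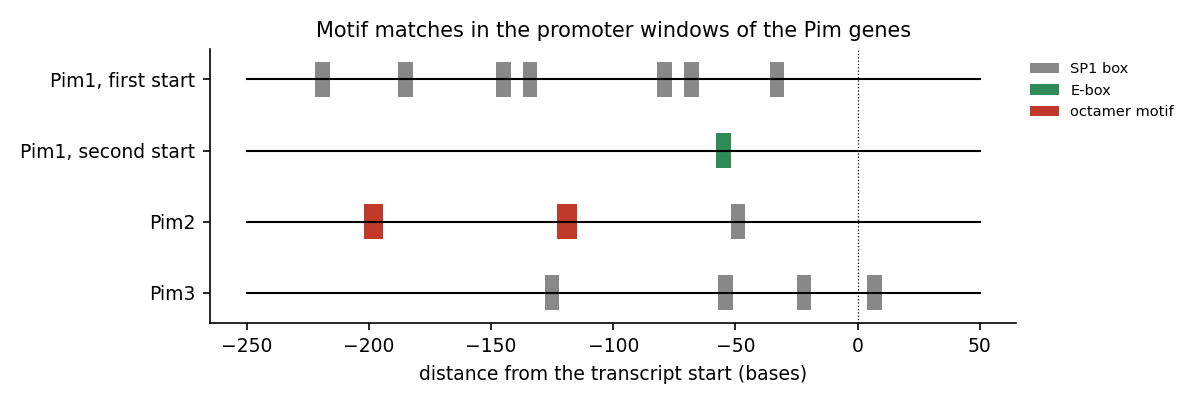
Positions of motif matches in the 4 promoter windows of the Pim genes, by distance in bases from the transcript start (dotted line). Each black line is 1 window of 300 bases and each bar 1 match on either strand. The Pim2 window holds 2 octamer motifs and the first Pim1 window 7 SP1 boxes.

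Pim2 was higher without LIF. Pim2, known for its expression in lymphoid cells, was read by the single probe set 1417216_at. Its MAS5 signals, which are linear intensities scaled within each array, came to 842.8 on array 1 and 417.9 on array 2 with LIF. Without LIF they came to 7233 on array 1 and 6207 on array 2. Both arrays without LIF lay far above both arrays with LIF, and on the log2 scale the arrays with LIF differed from each other more than those without LIF. The mean signal was 630 ± 300.4 with LIF and 6720.4 ± 725 without LIF (SD, n = 2), a log2 change (without LIF minus with LIF) of 3.50 with a moderated SE of 0.33, or 11.3-fold. The difference was 8.58-fold between the arrays numbered 1 and 14.9-fold between those numbered 2. In both groups the array numbered 2 was the lower one, by 1.01 on the log2 scale with LIF and by 0.22 without LIF.

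Pim1 was lower without LIF. Pim1 is the founding member of the family, first known as an integration site of a leukemia virus in mice. Its brightest probe set, 1435458_at, read 1811 and 1988 on the arrays with LIF and 868 and 722 on the arrays without LIF. The mean was 1899 ± 125 with LIF and 795 ± 103 without LIF (SD, n = 2), a log2 change of -1.26 (SE 0.20; 2.40-fold). The dimmer probe set 1423006_at read 498 and 512 with LIF against 271 and 166 without LIF, with a log2 change of -1.25 (SE 0.32). The 2 probe sets of Pim1 therefore gave nearly the same size of difference, and on each the lowest array was array 2 without LIF. For number 1 the log2 differences were -1.06 and -0.88 on the brighter and the dimmer probe set, and for number 2 they were -1.46 and -1.63.

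Pim3 was lower without LIF on its 2 brighter probe sets and higher on the dimmest. Pim3 is known, like Pim1, as a gene that LIF induces in mouse ES cells. The brightest probe set, 1437100_x_at, read 3338 and 4196 on the arrays with LIF and 1358 and 1284 on those without LIF. The mean was 3767 ± 607 with LIF and 1321 ± 52.5 without LIF (SD, n = 2), a log2 change of -1.50 (SE 0.19; 2.83-fold). The ending _x_at marks probe sets with some probes that also match other transcripts, so the plain probe set 1451069_at was set beside it. That probe set read 1126 and 1900 with LIF against 716 and 644 without LIF, a log2 change of -1.11 (SE 0.29), made up of -0.65 for number 1 and -1.56 for number 2. Its arrays did not overlap between the groups either, but array 1 with LIF lay nearer to the arrays without LIF than array 2 did.

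The third Pim3 probe set, 1438956_x_at, went the other way. It read 59.3 and 35.2 with LIF against 129 and 70.0 without LIF, a log2 change of 1.06 (SE 0.62). Its mean log2 signal of 6.04 lay above the filter for dim genes, at 4.51 on that scale or a signal of 22.9, and near the level of the array medians, which were 59.6 to 95.5. The mean log2 change over the 3 Pim3 probe sets, each weighted equally, was -0.52. The direction given for Pim3 thus rests on the 2 brighter probe sets, and for Pim2 there was no other probe set to compare.

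**Figure D2:**
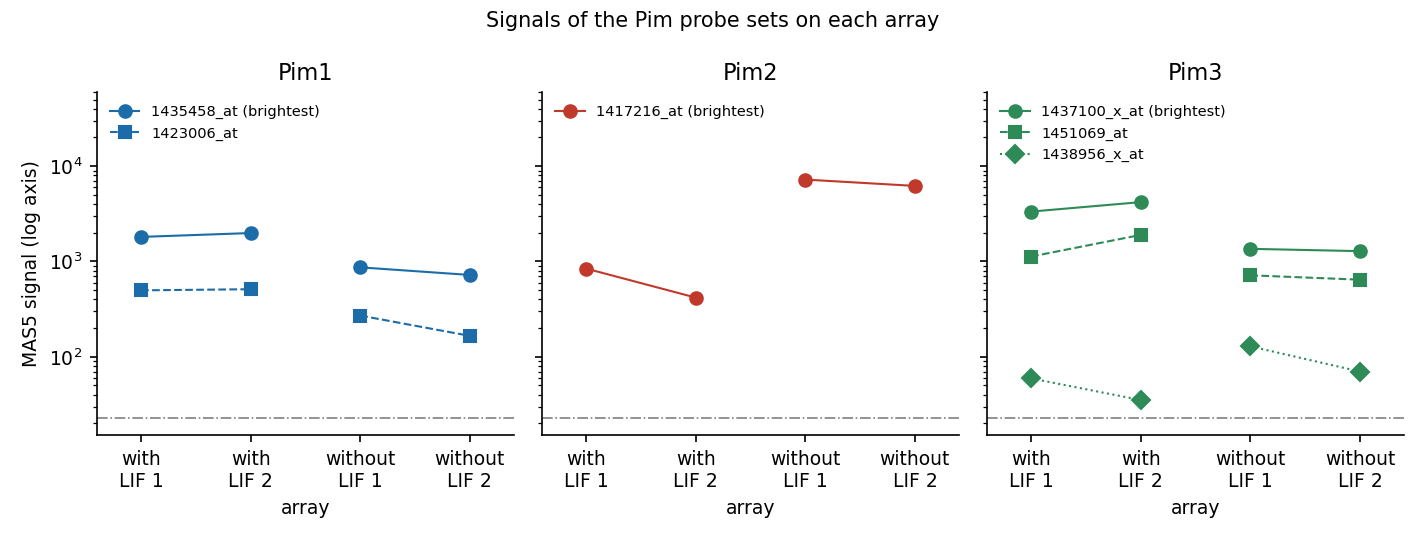
MAS5 signal on a log axis for each of the 6 Pim probe sets on arrays 1 and 2 with LIF and arrays 1 and 2 without LIF. Points are single arrays, lines join the arrays of 1 group, and the grey line is the filter at 22.9. Pim2 sits at 418 to 843 with LIF and 6207 to 7233 without LIF, while both Pim1 probe sets and the 2 brighter Pim3 probe sets sit lower without LIF.

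On each of the 6 probe sets the groups did not overlap. This held for 42.5% of the 14445 tested genes, and since the family was chosen for this contrast nothing is read from that count. The order of the arrays was the same for the brightest probe sets of Pim1 and Pim3, from array 2 with LIF as the highest through array 1 with LIF and array 1 without LIF to array 2 without LIF. For Pim2 the order was array 1 without LIF, array 2 without LIF, array 1 with LIF and array 2 with LIF. Neighbouring arrays of 1 group in these orders were separated by less than the difference between the groups.

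Differences between members do not depend on how an array is scaled, since they are formed within each array. The log2 change of Pim2 exceeded that of Pim1 by 4.76, with 4.16 for number 1 and 5.35 for number 2. Pim3 and Pim2 differed by -5.00 in the same measure, with -4.40 and -5.60 within the numbers. Between Pim3 and Pim1 it was -0.24, with -0.24 and -0.25 within the numbers. That difference is smaller than either gene's own change and close to the SEs of about 0.20 and 0.19 of the single changes. The single Pim2 probe set and the brightest Pim1 and Pim3 probe sets thus went apart in the same direction in both array numbers.

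Among the 14445 genes tested, each represented by its brightest probe set, Pim2 had the 12th largest positive log2 change, while Pim3 had the 150th and Pim1 the 247th largest negative one. Dim genes spread more widely. Of the 2439 genes with a mean log2 signal as high as that of Pim2 or higher, Pim2 itself included, Pim2 had the largest positive change. Pim3 had the 4th largest negative change of 2170 genes at its own brightness or above, and Pim1 the 29th of 3667. Each cut is the gene's own mean over all 4 arrays, those where it was high included, so these ranks depend on the change itself. The median log2 change over all tested genes was 0.09.

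**Figure D3:**
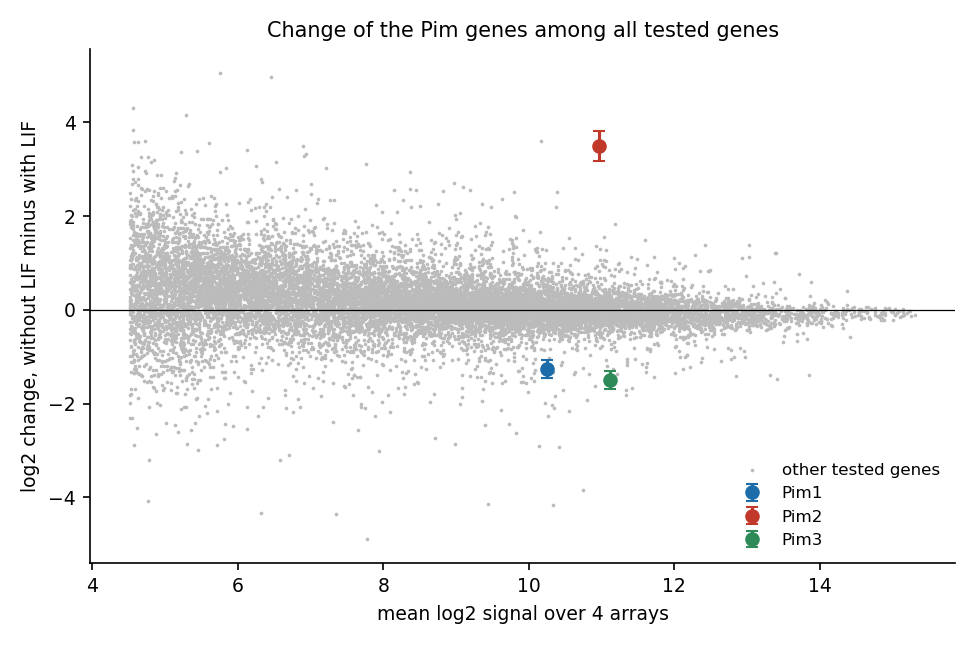
Log2 change (without LIF minus with LIF) against mean log2 signal over the 4 arrays for the 14445 tested genes (grey points). Coloured points are Pim1, Pim2 and Pim3 with their moderated SE. Pim2 stands at 3.50, above all other genes whose mean over the 4 arrays is as high or higher. That mean includes its high arrays without LIF. Pim1 and Pim3 stand at -1.26 and -1.50.

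The arrays themselves differed by number as well as by group. The median signal was 69.9 on array 1 and 59.6 on array 2 with LIF, and 95.5 and 65.5 on the arrays without it. The log2 signals of array pairs correlated at 0.932 to 0.962 across tested genes, which are not independent replicates. An 18S ribosomal RNA control gave signals of 260.5 and 307 for number 1, against 1933 and 1054 for number 2. The 3′ to 5′ ratio of Actb was 1.32 and 1.44 for number 1, against 1.83 and 1.77 for number 2. The Pim differences had the same direction within each number, as given above, and the part of these controls in their sizes was not tested. All 10 ES cell markers were above the filter. At an adjusted p of 0.05 in limma's test 1 of them fell, the nuclear receptor Esrrb, named after its value was seen. Of all tested genes 0.145% passed in that test, 0.0969% of them lower without LIF. The list median was -0.39, with 8 log2 changes negative and 2 positive. At an unadjusted p of 0.05 or less there were 6 of the 10, counted whatever their direction, against 1573 of all 14445 tested genes. Chosen likewise after their values were seen, the pluripotency factor Nanog read 10137 and 14229 with LIF, against 3553 and 5725 without LIF (log2 change -1.41; adjusted p = 0.12). Zfp42, which encodes the ES cell marker Rex1, had signals of 21638 and 26293 with LIF, against 7471 and 11274 without LIF (-1.38; adjusted p = 0.084). For Tdgf1, a Nodal co-receptor, they were 15736 and 21224 with LIF, against 4789 and 8929 without LIF (-1.48; adjusted p = 0.13). These 3 genes did not pass, and they had lower signals on both arrays without LIF. Lin28a, a marker of the same list, went the other way and did not pass either. It read 3233 and 2873 with LIF, against 5179 and 6026 without LIF (0.87; adjusted p = 0.12). The marker sums came to 108602 and 127959 with LIF against 65418 and 90729.0 without LIF. The log2 change was 0.02 for Pou5f1, which encodes Oct4 (SE 0.22; adjusted p = 0.99), -0.52 for the pluripotency factor Sox2 (SE 0.16; adjusted p = 0.31), and 0.02 for the cytoskeletal gene Actb (SE 0.18; adjusted p = 0.98).

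Of the blood markers, a cell class in which Pim1 and Pim2 are well known, 9 of the 12 with a probe set were above the filter. All 12 together summed to 1922 and 1906 on the arrays with LIF, against 1709 and 1847 without LIF. The median log2 change of the tested markers was 0.32, with 6 positive and 3 negative. Pecam1, which ES cells also express, made up 52.7% of the sum over the arrays. Without it, a choice made after its values were seen, the other 11 markers summed to 718 and 700.0 with LIF, against 1146 and 932 without LIF. The median signals of the arrays, given above, were likewise higher without LIF within each number. The defining markers Ptprc, Cd3e and Itgam were below the filter by their mean over the 4 arrays. Itgam, an integrin of myeloid cells, gave signals of 11.5 and 2.8 with LIF, against 92.0 and 51.3 without LIF. Ptprc, the leukocyte antigen CD45, gave 28.3 and 7.8 with LIF, against 41.4 and 24.0 without LIF. Both thus read above the filter level of 22.9 on each array without LIF, as Ptprc also did on array 1 with LIF. On the arrays without LIF both lay below the median signals of 95.5 and 65.5. Cd3e, a T cell receptor subunit, gave 13.9 and 28.4 with LIF, against 12.6 and 12.4 without LIF. The 14 primitive endoderm markers summed to 7061 and 16997 with LIF and 8665 and 29739.0 without LIF. These sums were higher on the arrays numbered 2 in both groups, and higher without LIF within each number. The median log2 change of these markers was 0.59, with 11 positive and 3 negative. The 10 fibroblast markers summed to 15715 and 14669 with LIF, against 13070.5 and 10528 without LIF. The median log2 change of the 9 above the filter was 0.16. Vim and Fn1 made up 89.3% of that sum. The other 8, again chosen after the values were seen, summed to 1569 and 582 with LIF, against 2564 and 1045 without LIF, with the larger sum on the arrays without LIF in each number. On these 3 lists 0 markers passed limma's test, against 0.145% of all tested genes, so nothing about the markers is read from that count. At an unadjusted p of 0.05 or less there were 3 of 9 blood, 1 of 14 primitive endoderm and 2 of 9 fibroblast markers. The share over all tested genes was 1573 of 14445. The part of such cells in the Pim values was not tested.

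Components of JAK, STAT and NF-kappaB signalling, inhibitors included, were read as a list. In limma's test over all genes 0.145% of tested genes passed at an adjusted p of 0.05, 0.0485% higher and 0.0969% lower without LIF. Of 28 tested genes on the list of JAK, STAT and NF-kappaB components 0 rose and 1 fell, and the list median was -0.07. At an unadjusted p of 0.05 or less there were 6 of the 28, against 1573 of all 14445 tested genes. The groups did not overlap for 13 of the 28 (46.4%), against 42.5% of all tested genes. The gene that fell was Socs3, the feedback inhibitor of JAK kinases that is itself a STAT3 target, with 4827 and 6198 with LIF and 360.0 and 261 without LIF (log2 change -4.16; SE 0.24; adjusted p = 0.0046). With its brightest plain probe set Socs3 was not called (-3.74; adjusted p = 0.0565). Stat3, the factor through which LIF acts, read 1035 and 1267 with LIF against 318 and 498 without LIF, a log2 change of -1.53 that did not pass (SE 0.28; adjusted p = 0.100). Its 4 probe sets ranged from -2.86 to 1.14. The receptor subunit Lifr had a log2 change of -1.70 (adjusted p = 0.082). Socs1, a SOCS inhibitor that PIM kinases can stabilise, had signals of 30.7 and 44.6 with LIF against 132 and 139 without LIF, a log2 change of 1.88 that did not pass (adjusted p = 0.20).

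Of the 29 tested LIF and STAT3 targets other than the Pim genes, 22 had a negative log2 change. In the test 0 rose and 3 fell, while 0.0485% of all tested genes were called higher and 0.0969% lower. The list median was -0.57 against 0.09 for all genes. Besides Socs3, the members that fell were Bcl3, a nuclear cofactor of NF-kappaB (-4.90; SE 0.29; adjusted p = 0.0046), and Klf4, a transcription factor of naive ES cells (-3.84; SE 0.28; adjusted p = 0.010). All 3 changes were larger in size than those of Pim1 and Pim3. Gadd45g, a stress and differentiation gene, had the opposite sign, with a log2 change of 2.62 that did not pass (SE 0.35; adjusted p = 0.054). The groups did not overlap for 20 of the 29 members (69.0%), 17 of them lower and 3 higher without LIF, against 42.5% of all tested genes. The list was written with earlier results of these data known, so its median and this share are a description.

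Genes of the formative and primed epiblast, the state that follows the naive one, had mostly positive log2 changes, as Pim2 did. Of 26 tested members 2 rose and 0 fell, while 0.0485% of all tested genes were called higher and 0.0969% lower. The list median was 1.00, and 22 members had a positive log2 change. Pou3f1, a POU factor, read 434 and 250 with LIF against 3065 and 5292 without LIF (log2 change 3.61; SE 0.35; adjusted p = 0.026). A link between any POU factor and the octamer motifs of the Pim2 window was not tested. Car4, a carbonic anhydrase, rose by 2.51 on the log2 scale (SE 0.25; adjusted p = 0.026), and was not called in the fit lacking array 2 with LIF (adjusted p = 0.074) or with quantile normalization (0.068). With the mean of its probe sets Pou3f1 was not called (adjusted p = 0.052). The DNA methyltransferase Dnmt3b (1.20) and the growth factor Fgf15 (2.29) missed the threshold, at adjusted p = 0.065 and 0.071. The groups did not overlap for 22 of the 26 members (84.6%), 19 of them higher without LIF, against 42.5% of all tested genes. This list too was written with earlier results of these data known, so its median and this share are a description. Without limma's mean-variance trend 0 genes of the whole array passed and 1589 had an unadjusted p of 0.05 or less, so that every call named here rests on that trend.

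Transcripts of PIM substrates and partners formed the next list. Of 30 tested members 0 rose and 0 fell in limma's test over all genes, of which 0.145% were called, so nothing about the members is read from that count. At an unadjusted p of 0.05 or less there were 4 of the 30, against 1573 of all 14445 tested genes. The median log2 change was 0.13, and the groups did not overlap for 17 members (56.7%, against 42.5% of all tested genes). Centring each array on a common median shifted all genes by a median of -0.29 on the log2 scale. That turned the list median to -0.16 and gave Bad, Cdkn1b, Mycn, Pou5f1 and Actb, whose changes were small, a negative sign. Cdkn1a, a cell cycle inhibitor that PIM kinases phosphorylate, read 856 and 702 with LIF against 1341 and 2656 without LIF (log2 change 1.28; SE 0.33; adjusted p = 0.21). Myb, a transcription factor whose activity PIM1 raises, had a log2 change of 1.27 (adjusted p = 0.34). Runx1, a transcription factor of blood formation, had one of 1.92 (adjusted p = 0.45), though its 6 probe sets ranged from -0.53 to 1.92. The death agonist Bad, held inactive by PIM phosphorylation, showed a change of 0.18 (SE 0.34; adjusted p = 0.89), and the cell cycle inhibitor Cdkn1b one of 0.28 (SE 0.24; adjusted p = 0.73). Myc and Mycn, which cooperate with PIM kinases in lymphoma, showed log2 changes of -0.19 (SE 0.26; adjusted p = 0.84) and 0.02 (SE 0.30; adjusted p = 0.99). The 2 probe sets of Bad differed in sign, and the 3 probe sets of Mycn ranged from 0.02 to 1.14.

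The AKT and mTOR axis, which shares substrates with the PIM kinases, was read in the same way. Of 30 tested members 0 rose and 0 fell in limma's test, again against 0.145% of all genes, from which nothing is read. Of the 30 members 3 had an unadjusted p of 0.05 or less, against 1573 of all 14445 tested genes, and the list median was -0.01. The kinase Sgk1, a relative of AKT, had signals of 8232 and 10707 with LIF and 3546 and 5429 without LIF (log2 change -1.10; SE 0.25; adjusted p = 0.16). Ddit4, an inhibitor of mTOR complex signalling, had a log2 change of 1.08 (adjusted p = 0.29), Pdpk1, the kinase that activates AKT and Sgk1, one of -0.54 (adjusted p = 0.38), and Pik3r1, a regulatory subunit of PI3 kinase, one of 0.49 (adjusted p = 0.58). For Akt1 itself the change was -0.09 (SE 0.28; adjusted p = 0.94), with its 4 probe sets between -0.11 and 0.38. The groups did not overlap for 7 of the 30 members (23.3%), against 42.5% of all tested genes.

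**Figure D4:**
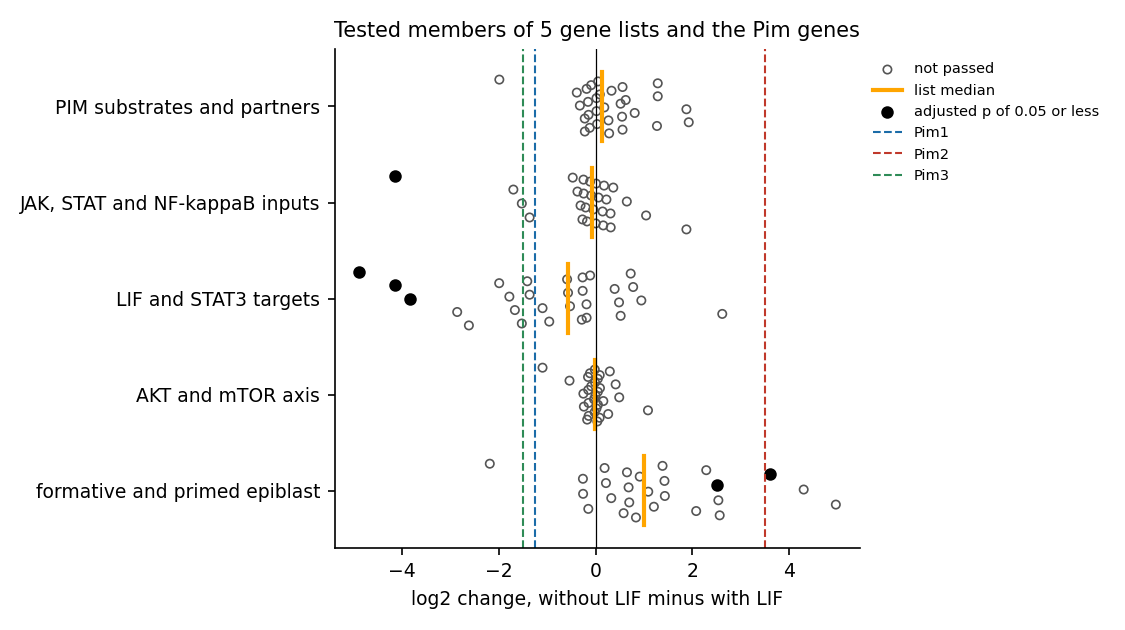
Log2 change (without LIF minus with LIF) of the tested members of 5 gene lists, with list medians (orange) and genes at an adjusted p of 0.05 or less (filled). Dashed lines mark Pim1, Pim2 and Pim3. The median is -0.57 for LIF and STAT3 targets and 1.00 for epiblast genes, and lies between -0.07 and 0.13 for the other 3 lists. Vertical position within a list has no meaning.

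The genes whose signals over the 4 arrays were most like those of each Pim gene were found by the Euclidean distance between log2 signals after the mean of each gene was removed. With 4 arrays, this likeness is a description of the group difference and of the spread between arrays. Pim1 was nearest to Myrfl, Itga7, a laminin-binding integrin subunit, Obox6, an oocyte homeobox gene, the ephrin receptor Epha4 and the SRC family kinase Yes1, at distances from 0.11 to 0.21. Their log2 changes lay between -1.44 and -1.24. Myrfl and Itga7 were dim, with signals at or below 61.4 on every array, while Yes1 read 2223 and 2893 with LIF against 1097 and 879 without LIF.

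Pim3 was nearest to the ganglioside synthase St8sia1, Plxdc1, the threonine aldolase Tha1, the WNT receptor Fzd5 and, again, Yes1, at distances from 0.17 to 0.22 and with log2 changes between -1.57 and -1.37. Fzd5 was the brightest of the first 4, with 1636 and 1823 with LIF and 606 and 656 without LIF. Yes1 stood among the 5 nearest genes of both Pim1 and Pim3. The distance between Pim1 and Pim3 was 0.31, which placed Pim3 as the 15th nearest gene to Pim1 and Pim1 as the 17th nearest to Pim3.

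Pim2 had no neighbour as close. The 5 nearest genes were the hyaluronan synthase Has2, Asb9, a substrate adaptor with a SOCS box, the T-type calcium channel Cacna1g, the milk casein Csn3 and the collagen receptor Mrc2, at distances from 0.35 to 0.46. Their log2 changes lay between 3.16 and 3.83. All 5 were far dimmer than Pim2, since Has2 read 48.5 and 30.8 with LIF against 382 and 366 without LIF, and Asb9 read 8.0 and 4.9 with LIF against 96.1 and 82.7 without LIF. With LIF, Asb9 and Cacna1g were below the filter level of 22.9 on both arrays, and Csn3 and Mrc2 on array 2, at 20.9 and 20.7, so the sizes of these 4 changes are uncertain. The 2 probe sets of Mrc2 had log2 changes of 0.32 and 3.16. The distance of Pim2 to Pim1 was 4.83 and that to Pim3 5.09.

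**Figure D5:**
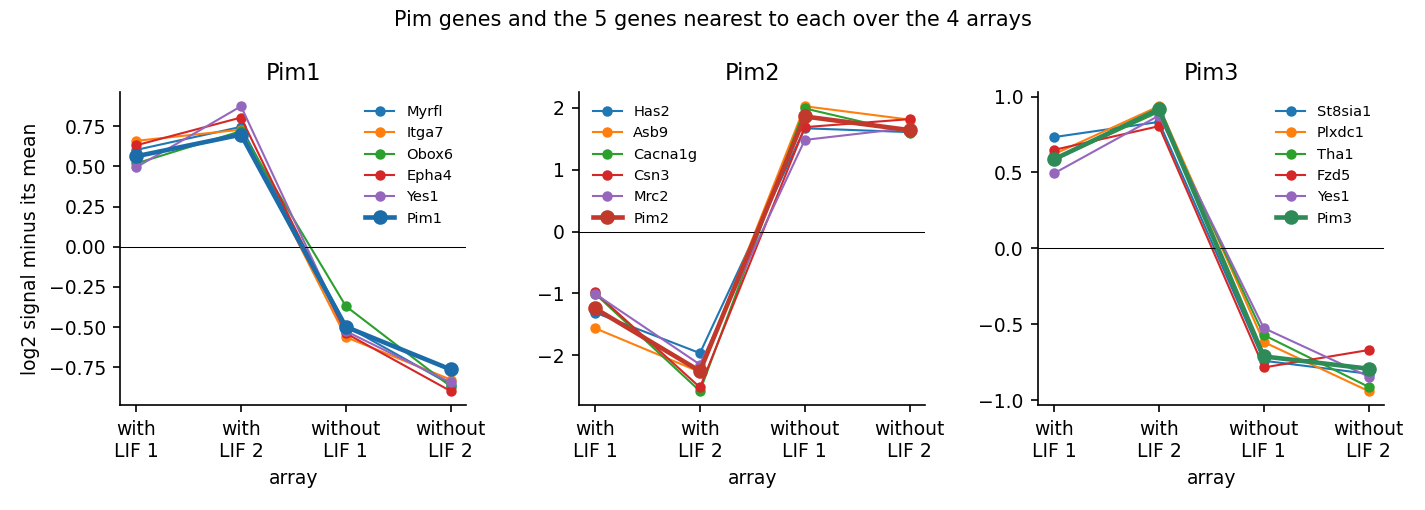
Log2 signal minus its mean over the 4 arrays for Pim1, Pim2 and Pim3 (thick lines) and the 5 nearest genes of each (thin lines), on arrays 1 and 2 with LIF and 1 and 2 without LIF. The scale differs between panels. Pim1 and Pim3 and their neighbours sit below 0 on the arrays without LIF, and Pim2 and its neighbours sit above 0 there.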

How the data were processed

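The authors deposited 1 MAS5 intensity for each probe set and array, per the submitters' processing notes. They are on a linear scale. The version of MAS5 and the genome build are not given in the sources used here. The mean without the lowest and highest tails was 500.0 on every array. Precision is limited by the number of arrays, 2 a group.

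Of 45101 probe sets, 64 controls, 932 with several symbols and 9160 without one in the platform annotation were left out. Each of 18193 genes was represented by its brightest probe set, and 14445 passed a filter at the 30th percentile of mean log2 signal (4.51). The 1 value at 0 was raised to the smallest positive value. Groups were compared in R 4.3.3 with limma 3.58.1 (lmFit and eBayes, trend of variance on mean included) on log2 intensities, two-sided, with Benjamini-Hochberg adjustment over all tested genes at 0.05 and 2 residual degrees of freedom. The fit was tested on simulated data. Plots used Python 3.11.15 and matplotlib 3.10.9.

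The members, lists and tests were chosen with earlier results of these data known. Besides the Pim genes the text names the 5 nearest genes of each, up to 4 members of each list with the smallest p, and Stat3, Socs3, Pou5f1, Sox2, Actb, Bad, Cdkn1b, Myc, Mycn and Akt1. From the cell type marker lists it also names Esrrb, Nanog, Zfp42, Tdgf1, Lin28a, Pecam1, Itgam, Ptprc, Cd3e, Vim and Fn1. Several of these were chosen after their values were seen. Socs1, Socs3, Stat3, Sgk1 and several others stand on 2 lists. Promoters came from RefSeq and matched all 3 genes by symbol. Alternatives were other filters, scalings, variance models and probe set rules, a pseudocount of 14.3, the array number as a block and leaving out each array.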

Additional observations from a re-analysis of the deposited data

How the results depend on the processing

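Pim2 kept its direction and moved by less than its spread between arrays under every alternative run, from 2.99 to 4.0 with an array left out. Pim1 and Pim3 kept their direction too, from -1.39 to -1.13 and from -1.67 to -1.34 with an array left out. With a common median per array, which shifted all genes by a median of -0.29, Pim1 was -1.55 and Pim3 -1.80. Pim1 was -1.06 and -1.46 within the arrays numbered 1 and 2, and Pim3 -1.30 and -1.71. Pim3 was -0.52 as the mean of its probe sets and -1.11 with its brightest plain probe set. The number of genes called depended on the processing. From 21 genes (7 higher, 14 lower) it went to 41 (19, 22) with a filter at the 50th percentile, 10 (3, 7) with quantile normalization, 131 (48, 83) with a common median, 40 (18, 22) with a pseudocount, 0 (0, 0) without the trend in limma (1589 at an unadjusted p of 0.05 or less), 52 (26, 26) with robust estimation, 12 (3, 9) with the mean of probe sets and 140 (73, 67) at an adjusted p of 0.1. It was 7 to 496 (2 to 256, 5 to 240) with an array left out, 7 without array 2 with LIF, 39 without array 1 with LIF, 303 without array 1 without LIF and 496 without array 2 without LIF. Members called on the LIF and STAT3 target list went from 3 to 9 with a common median, 0 without the trend, 6 at an adjusted p of 0.1 and 3 to 10 with an array left out. On the JAK, STAT and NF-kappaB list 1 became 3 with a common median, 0 without the trend, 0 with plain probe sets, 3 at an adjusted p of 0.1 and 1 to 3 with an array left out. On the epiblast list 2 became 1 with quantile normalization, 9 with a common median, 0 without the trend, 1 with the mean of probe sets, 6 at an adjusted p of 0.1 and 1 to 11 with an array left out. On the lists of PIM substrates and of the AKT and mTOR axis 0 became 0 to 1 with an array left out. The cause of these moves was not tested.

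Arrays of the same number in both groups deviated together (r = 0.291 over genes, 1 value for both pairs of a design of this size), which with 2 pairs does not show that the numbers pair the samples. With the array number as a replicate block the Pim changes stayed at -1.26, 3.50 and -1.50, and 975 genes passed (596 higher, 379 lower), or 734 (411, 323) with quantile normalization as well. With the block the calls were 17 LIF and STAT3 targets, 6 JAK, STAT and NF-kappaB components, 17 epiblast genes, 3 PIM substrates and 3 genes of the AKT and mTOR axis, and with quantile normalization as well they were 15, 4, 16, 2 and 2.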
